A study of Mus musculus with 4 samples.

Results

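Interferon-induced GTPases were examined in whole liver of mice bred to lack the kinase TAK1 in hepatocytes. The family was taken as 10 genes chosen by symbol, namely Gbp2, Gbp3, Gbp4, Gbp6, Gbp7, Igtp, Irgm1, Irgm2, Iigp1 and Ifi47, and 9 of them were measured among 16593 named genes. Gbp6 had no probe under its current or older symbol in the array annotation and was not analysed here. Each gene was represented by the probe with the highest mean intensity over all 4 arrays, so that mean was used to choose the probe and is not a finding. The difference between genotypes was not used for that choice, but the genes were proposed with earlier results of these data known, so their counts are descriptions beside the count over all genes.

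RNA of 4 livers or liver samples was hybridised to 1 Illumina bead array each, 2 per genotype. By their labels the WT samples carried the TAK1 flox allele and no Cre, and the TAK1 KO samples carried Alb-Cre/ TAK1 flox. In the latter the albumin promoter drives Cre in hepatocytes. How complete the deletion was, and whether other liver cells kept the gene, was not tested. All were labelled as untreated C57BL/6 males 4 weeks old, so floxed TAK1 is common to both groups and Cre differs together with the deletion. Whether the samples of a group came from separate animals is not labelled, so the spread between samples may be technical. SEs and p-values are limma's moderated ones. They weigh a gene's own spread (2 residual degrees of freedom) with a variance pooled over all genes (6.85 prior degrees of freedom).

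Interferon-induced GTPases are cell-autonomous defence proteins, made at low levels in resting cells and in large amounts after interferon gamma. Guanylate-binding proteins (Gbp) assemble on microbes and on the vacuoles that hold them and help to break these open. Immunity-related GTPases (IRG) fall into effectors such as Iigp1 and Ifi47, which load onto vacuoles, and the regulators Irgm1, Irgm2 and Igtp, which keep the effectors inactive on the cell's own membranes. Interferon gamma acts on promoters through gamma-activated sites (GAS), and through IRF1, which binds interferon-stimulated response elements (ISRE), elements that type I interferon uses too.

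Promoters of the measured family members are shown because these elements are the known route to their induction. RefSeq (GRCm38.p6) promoter windows, from 250 bases before to 50 after a gene's start, matched 7 of the members in 8 windows. The chromosome of Iigp1 was left out of this search, though not of the promoter windows compared below. No window of Gbp4, Gbp6 or Iigp1 is among the 8. The letters TTCNNNGAA (GAS) and GAAANNGAA (ISRE) were searched on both strands. The ISRE letters were found in 6 of the 8 windows and the GAS letters in 3, against 8.56% and 8.30% of 32851 promoter windows of the same length. The 110 bases before the start are printed 5′ to 3′ on the gene's strand, with matches of either motif in capitals.
Gbp2, chr3:142620553-142620662, plus strand: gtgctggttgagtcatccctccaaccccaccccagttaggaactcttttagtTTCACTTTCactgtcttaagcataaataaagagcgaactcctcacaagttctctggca
Gbp3, chr3:142559934-142560043, plus strand: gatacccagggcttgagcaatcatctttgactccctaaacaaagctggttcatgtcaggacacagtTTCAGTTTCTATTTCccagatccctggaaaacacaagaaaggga
Gbp7, chr3:142530226-142530335, plus strand: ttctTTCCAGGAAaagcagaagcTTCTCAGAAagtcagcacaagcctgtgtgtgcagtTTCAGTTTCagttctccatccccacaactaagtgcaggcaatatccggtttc
Igtp, chr11:58199446-58199555, plus strand: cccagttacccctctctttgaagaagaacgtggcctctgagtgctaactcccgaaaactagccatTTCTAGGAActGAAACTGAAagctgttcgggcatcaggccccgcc
Irgm2, chr11:58214867-58214976, plus strand: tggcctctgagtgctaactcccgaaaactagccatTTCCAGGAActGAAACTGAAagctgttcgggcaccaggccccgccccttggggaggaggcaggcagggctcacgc
Irgm1, chr11:48871421-48871530, minus strand: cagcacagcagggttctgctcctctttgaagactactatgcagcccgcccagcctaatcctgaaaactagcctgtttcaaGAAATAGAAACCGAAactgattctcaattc
In Gbp7, Igtp and Irgm2 a GAS match lies upstream of an ISRE match, and in Gbp2, Gbp3 and Irgm1 only the ISRE letters occur. The windows of Igtp and Irgm2 are 90.4% identical over 270 aligned bases. The second Gbp3 window and the Ifi47 window hold neither motif, which says only that these letters are not in those windows.

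The 4 arrays had median deposited intensities of 81.5 to 81.9 units, with 40.6% to 40.9% of probes exceeding 100 units, the level below which a probe is called dim here. All 8 hepatocyte markers lay above 100 units on at least 2 arrays. Among them Alb read only 190.5 to 214.4 units, against 29575.7 to 39760.7 for Ttr, and whether the Alb probe reports its gene was not tested. Although the labels give males, Xist read 575 to 853.4 units over the 4 arrays. The Y-linked Eif2s3y read 53.3 to 69.3, Kdm5d 54.5 to 59.7 and Uty 112.4 to 142.2 units. High Xist with dim Eif2s3y and Kdm5d goes against the male label, though Uty was above 100 units. The sex was not tested further. Map3k7, which encodes TAK1, read 155 and 138.4 units in WT against 125.3 and 117.9 in TAK1 KO liver, or -0.26 ± 0.10 on the log2 scale (SE, 2 arrays per group; limma adjusted p = 0.116). Since it is unknown whether its probe reads the deleted part, the genotype is not checked by it. The number of arrays, 2 per group, sets the precision throughout.

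Of the 9 measured GTPases 4 were lower in TAK1 KO liver by limma at a threshold of 0.05 on the adjusted p, and 0 were higher. Over all genes 7.71% were called lower and 10.5% higher, and 15.8% and 20.8% among 7791 genes that exceeded 100 units on 2 or more arrays, as 7 of the 9 members did. The counts of the other lists below are to be read beside these shares too. The 4 that fell were the guanylate-binding proteins Gbp2, Gbp3 and Gbp7 and the IRG regulator Igtp, by 1.37-fold to 1.64-fold. The median log2 difference of the 9 was -0.22, beside -0.00356 over all genes, and single members ranged from -0.71 to 0.21. In whole liver, fewer cells of a type and less RNA per cell cannot be told apart.

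Gbp3 read 439.4 and 466.6 units in WT against 238.1 and 316.8 in TAK1 KO liver. Its 2 genotypes did not overlap, as in 53.9% of all genes (26.6% with TAK1 KO lower), so separation alone says little with 2 arrays per group. Gbp3 fell by 0.71 ± 0.13 on the log2 scale (SE; limma adjusted p = 0.00524). Its other probe, at 266.4 and 292.5 units in WT against 159.5 and 219.6 in TAK1 KO, gave a log2 difference of -0.57 ± 0.14 (SE; limma adjusted p over all probes = 0.0252). Both Gbp3 probes therefore passed in the same direction, and on both the first TAK1 KO array was the lowest of the 4. Without WT replicate 2 the brighter probe missed the threshold (limma adjusted p = 0.0688).

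Gbp2, whose protein is recruited to bacterial and parasite vacuoles, read 266.4 and 312.1 units in WT against 168.8 and 191.5 in TAK1 KO liver. Both TAK1 KO values lay below both WT values, and Gbp2 was 1.59-fold lower (log2 -0.67 ± 0.11 SE, limma adjusted p = 0.00300). The 2 other Gbp2 probes read 48.5 to 60.3 units on every array, which is dim, and averaging all 3 probes ended the call (limma adjusted p = 0.105). Gbp7 read 137.6 and 157.2 units in WT against 107.2 and 104.8 in TAK1 KO, so its TAK1 KO values were only just above the level called dim. It was 1.37-fold lower (log2 -0.46 ± 0.10 SE, limma adjusted p = 0.0115), a call lost without WT replicate 2 (0.107) and with its dimmer probe averaged in (0.0608). Gbp2, Gbp3 and Gbp7 are neighbours on chromosome 3. Gbp4, which lies in the Gbp cluster of chromosome 5, read 49.4 to 56.6 units on all 4 arrays, so both groups were dim and no fold is given (limma adjusted p = 0.727).

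**Figure D1:**
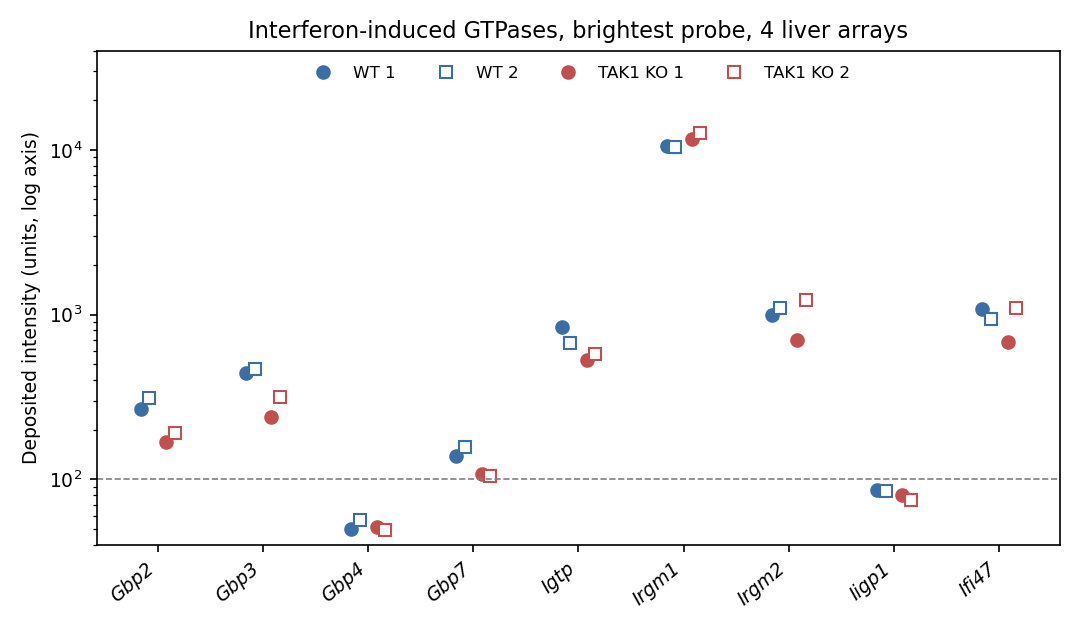
Deposited intensity (units, log axis) of the 9 measured GTPases on the WT arrays (blue) and TAK1 KO arrays (red), with circles for replicate 1, squares for replicate 2 and a dashed line at 100 units. In Gbp2, Gbp3, Gbp7 and Igtp both red points lie below both blue points, as in 26.6% of all genes. In Irgm2 and Ifi47 the TAK1 KO 2 square lies above both WT points and the TAK1 KO 1 circle below them.

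Among the IRG regulators, Igtp read 843.5 and 673.3 units in WT against 525.7 and 572.6 in TAK1 KO liver. The groups did not overlap, although the WT arrays differed by more than the TAK1 KO arrays did. Igtp fell by 0.45 ± 0.12 on the log2 scale (SE; limma adjusted p = 0.0301), and missed the threshold without WT replicate 1 (0.212) and with a smaller background offset (0.0893). Irgm2 read 988.4 and 1091.7 units in WT against 696.4 and 1225.3 in TAK1 KO, so the TAK1 KO arrays lay on either side of WT. Its log2 difference was -0.17 ± 0.22 (SE; limma adjusted p = 0.724).

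Irgm1, the regulator that also acts in autophagy, gave different answers on its 3 probes. Its brightest probe read 10580.4 and 10460 units in WT against 11630.8 and 12698.8 in TAK1 KO, a log2 difference of 0.21 ± 0.09 that did not pass (SE; limma adjusted p = 0.192). Its second probe read 494.4 and 476.6 units in WT against 298 and 392.5 in TAK1 KO. That probe was lower by -0.50 ± 0.13 on the log2 scale (SE; limma adjusted p over all probes = 0.0284), and the third was dim at 70.6 to 78 units. The TAK1 KO arrays thus lay above WT on one Irgm1 probe and below WT on another, and which of them reports the gene was not tested. With the second probe in place of the brightest, 5 of the 9 members were lower and the median of the members was -0.46 (limma adjusted p of Irgm1 = 0.0268).

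Of the effectors, Ifi47 read 1083.5 and 940.3 units in WT against 685.5 and 1094.3 in TAK1 KO liver. Like Irgm2, it was lowest on the first TAK1 KO array and highest on the second, and its log2 difference was -0.22 ± 0.19 (SE; limma adjusted p = 0.555). Iigp1 read 86.1 and 84.7 units in WT against 79.8 and 74.7 in TAK1 KO. Its TAK1 KO values were the lower, but it was dim in both groups and did not pass (limma adjusted p = 0.410), and its other probe read 53.2 to 61.8 units.

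**Figure D2:**
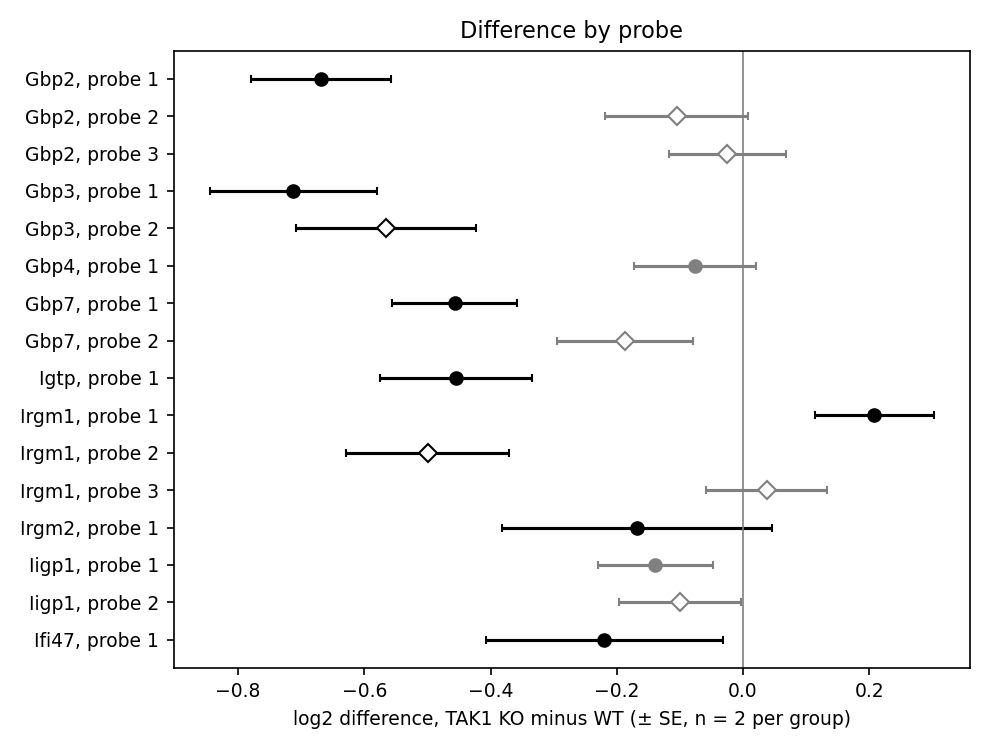
Log2 difference between TAK1 KO and WT (± SE, n = 2 per group) for each of the 16 probes of the 9 measured GTPases, numbered by brightness within a gene. Filled circles are the probes used, open diamonds the others, and grey marks probes with a mean below 100 units; both Gbp3 probes lie below 0, whereas Irgm1 probe 1 lies at 0.21 and probe 2 at -0.50.

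The TAK1 KO arrays differed widely from each other in some of these genes. Between them, Irgm2 was higher by 0.81 on the log2 scale on the second array, Ifi47 by 0.67 and Gbp3 by 0.41, where the median absolute difference of genes above 100 units was 0.12. In Irgm2 and Ifi47 this exceeded the difference of 99.2% and 98.4% of those genes. The share was 93.4% for Gbp3, 66.6% for Gbp2, 51.5% for Irgm1 and 50.1% for Igtp. For Iigp1, Gbp4 and Gbp7 it was 36.9%, 18.1% and 13.7%, and these were lower on the second array. Other listed interferon-stimulated genes above 100 units were mostly higher on the second TAK1 KO array than on the first. This held for 30 of 32, against 50.3% of all genes above 100 units, and their median log2 difference was 0.21. The 5 widest gaps were in Cxcl9 (1.08), Cxcl10 (0.95), Rsad2 (0.94), Oasl1 (0.87) and Cmpk2 (0.75). This list was compared after its values were seen. Between the WT arrays 10 of the 32 genes were higher on the second array, against 51.5% of all genes above 100 units. Their median log2 difference there was -0.06.

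Left out in turn, the TAK1 KO arrays gave different member counts. Without TAK1 KO replicate 2, 6 of the 9 GTPases were lower and the median log2 difference was -0.52. Irgm2 and Ifi47 then had log2 differences of -0.57 and -0.56. That fit leaves out the array on which both genes were highest. Its variance comes from the WT arrays and a prior pooled over genes, so it cannot test these genes. Without TAK1 KO replicate 1, 4 were lower, the median was -0.18, and Irgm2 and Ifi47 had positive log2 differences of 0.24 and 0.12 that did not pass (limma adjusted p = 0.245 and 0.686). Without WT replicate 2 the lower members numbered 2, namely Gbp2 and Igtp.

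**Figure D3:**
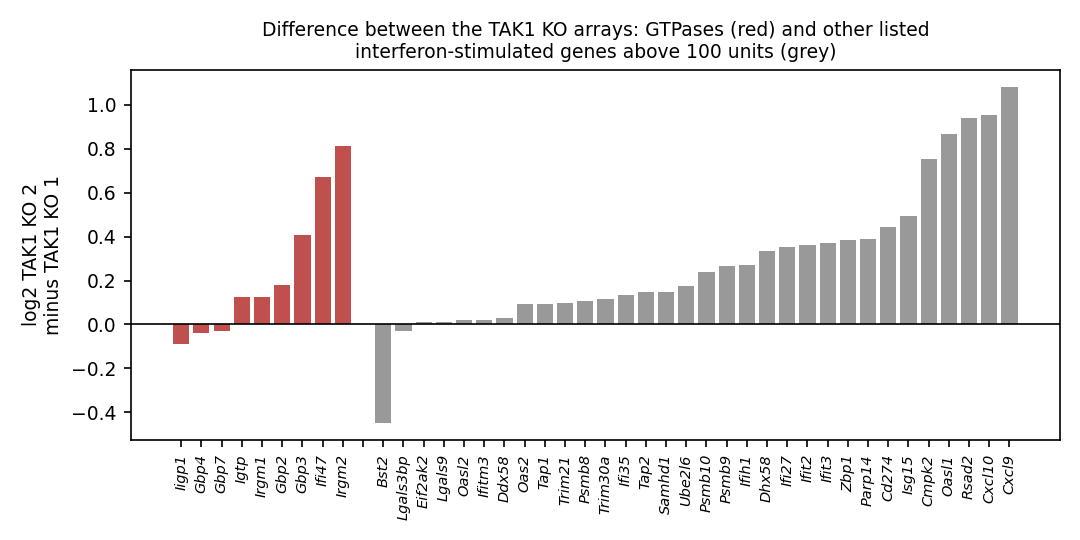
Log2 difference between the TAK1 KO arrays (replicate 2 minus replicate 1) for the 9 measured GTPases (red bars) and for 32 other interferon-stimulated genes above 100 units on at least 2 arrays (grey bars). Among the GTPases 6 of 9 bars are above 0, up to 0.81 in Irgm2, and among the other genes 30 of 32, up to 1.08 in Cxcl9.

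Among 13 further measured GTPases of the interferon response, 3 fell and 1 rose, with a median log2 difference of -0.11. Gbp2b, the neighbour and close relative of Gbp2, read 327 and 398 units in WT against 203.3 and 230.4 in TAK1 KO liver. It was 1.65-fold lower (log2 -0.73 ± 0.12 SE, limma adjusted p = 0.00265), close to Gbp2 and Gbp3. Probes of such related genes may be open to cross-hybridisation, which was not tested. Gm4951, an IRG gene, read 133.6 and 125.8 units in WT and was dim in TAK1 KO at 86 and 86.2 units, hence at least 1.28-fold lower (limma adjusted p = 0.00249). Gbp11 read 106.2 and 85.1 units in WT against 60.4 and 67.8 in TAK1 KO (limma adjusted p = 0.0138), a call at the edge of the dim range that was lost without WT replicate 1 (0.123).

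The 1 gene of this list that rose was Gvin1, a very large interferon-inducible GTPase, at 246.3 and 234.3 units in WT against 291.9 and 344.5 in TAK1 KO (1.31-fold, limma adjusted p = 0.0325). Its call was lost under 6 of 13 alternative settings, among them the mean of all its probes (0.475) and leaving out WT replicate 1 (0.120), WT replicate 2 (0.193) or TAK1 KO replicate 2 (0.158). With either WT array or TAK1 KO replicate 2 left out, 0 genes of the list rose, and without TAK1 KO replicate 1, 2 did. The chromosome 5 genes Gbp8 and Gbp9 read 47.8 to 52.6 and 53.8 to 64.9 units. Gbp5 (67.8 to 90.2 units), Tgtp1 (59.3 to 66 units) and the antiviral dynamin-like GTPase Mx1 (64.1 to 76.6 units) were dim on all arrays too.

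Upstream of the family, the interferons themselves were dim. Ifng read 59.8 and 62.1 units in WT against 70 and 69.5 in TAK1 KO liver (limma adjusted p = 0.240), and 6 of the 7 measured ligands and inducing cytokines were below 100 units on all arrays. The exception was Il18, a cytokine that induces interferon gamma in T and NK cells, which read 348.6 and 351.7 units in WT against 211.1 and 223.3 in TAK1 KO. The groups did not overlap, as in 53.9% of all genes. Il18 fell 1.60-fold (log2 -0.68 ± 0.09 SE, limma adjusted p = 0.000943), a call kept under all 13 alternatives.

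Of 20 measured receptors, kinases and transcription factors 4 rose and 1 fell, with a median log2 difference of -0.02. Among all genes above 100 units on at least 2 arrays, as 17 of the 20 were, 20.8% rose and 15.8% fell. Ifngr1, the ligand-binding chain of the interferon gamma receptor, read 226 and 221.5 units in WT against 370.3 and 408.7 in TAK1 KO. It rose 1.72-fold (log2 0.79 ± 0.10 SE, limma adjusted p = 0.000548). The second chain, Ifngr2, read 440.3 and 381.4 units in WT against 599.7 and 388 in TAK1 KO, so the TAK1 KO arrays disagreed (limma adjusted p = 0.496). Without TAK1 KO replicate 2 Ifngr2 was higher by 0.54 (0.00186), and without TAK1 KO replicate 1 it was at -0.08 (0.814).

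Il10rb, a chain of the interferon lambda and interleukin 10 receptors, rose 1.46-fold (limma adjusted p = 0.00288), and its partner Ifnlr1 was dim in WT and at least 1.17-fold higher (0.00198; 0.0590 with all its probes averaged). Ifnar2, a chain of the type I interferon receptor, read 159.7 and 147.5 units in WT against 100.3 and 123.7 in TAK1 KO. It fell 1.36-fold (limma adjusted p = 0.0269), a call lost with either WT array left out (0.186 and 0.0963), without TAK1 KO replicate 1 (0.106) and with all probes averaged (0.263). As a result 0 genes of the list fell in those fits, whereas 2 fell without TAK1 KO replicate 2.

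The receptor kinases Jak1 and Jak2 had log2 differences of -0.01 and -0.12 (limma adjusted p = 0.954 and 0.526). Irf1, the transcription factor that binds ISRE in the Gbp and IRG promoters, read 1266 and 1092 units in WT against 1394.3 and 1457.1 in TAK1 KO. Its TAK1 KO values were the higher on this probe, but the log2 difference of 0.28 ± 0.10 did not pass (SE; limma adjusted p = 0.111). With all 5 Irf1 probes averaged the log2 difference was 0.04 (limma adjusted p = 0.84). Irf8, an interferon-inducible factor of macrophages and dendritic cells, read 178.8 and 160.9 units in WT against 270.6 and 279.6 in TAK1 KO, and rose 1.60-fold (limma adjusted p = 0.00126). Of 6 inhibitors of interferon signalling 1 rose and 0 fell (1 fell without TAK1 KO replicate 2). That 1 was Socs3, a feedback inhibitor of STAT3, at 160.2 and 186.2 units in WT against 390.4 and 346.8 in TAK1 KO (2.10-fold, limma adjusted p = 0.000220). Socs1, the main feedback inhibitor of interferon gamma signalling, was dim on all arrays at 63.5 to 82.1 units.

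Of 40 other interferon-stimulated genes 4 were higher and 5 lower, with a median log2 difference of 0.06. Over all genes 10.5% were called higher and 7.71% lower. Among genes above 100 units on at least 2 arrays, as 32 of the 40 were, these shares were 20.8% and 15.8%, so the counts do not stand out. Cxcl9, a chemokine induced by interferon gamma, read 620.5 and 848.3 units in WT against 207.1 and 443.9 in TAK1 KO. It fell 2.37-fold (log2 -1.25 ± 0.29 SE, limma adjusted p = 0.0168), with calls lost without either WT array (0.0662 and 0.183) and under a robust prior (0.261). Its log2 difference was -0.70 without TAK1 KO replicate 1 and -1.79 without TAK1 KO replicate 2. Lgals9, a galectin, fell 1.51-fold from 2862.2 and 2832 to 1881.4 and 1894.2 units, and the antibody receptor and ubiquitin ligase Trim21 1.37-fold (limma adjusted p = 0.00173 and 0.00825). Ifit3 fell 1.34-fold at the edge of the threshold (limma adjusted p = 0.0493) and was lost under 7 of 13 alternatives.

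The 4 that rose included Eif2ak2, the RNA-sensing kinase PKR, from 429 and 426.5 to 598.5 and 602.2 units (1.40-fold, limma adjusted p = 0.00489). Oasl2, a protein related to oligoadenylate synthetases, rose 1.38-fold and Lgals3bp, a secreted glycoprotein, 1.42-fold (limma adjusted p = 0.00619 and 0.0117). Oasl1 read 177.1 and 131.8 units in WT against 211.3 and 388.2 in TAK1 KO, a spread between the TAK1 KO arrays nearly as wide as the difference (1.85-fold, limma adjusted p = 0.0349). The calls for Lgals9 and Eif2ak2 held under all 13 alternatives, and those for Oasl1, Oasl2, Trim21 and Lgals3bp were lost under 5, 2, 3 and 2 of them. With either WT array left out 2 of the 40 rose and 1 fell, while leaving out TAK1 KO replicate 1 gave 10 rises and 3 falls.

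**Figure D4:**
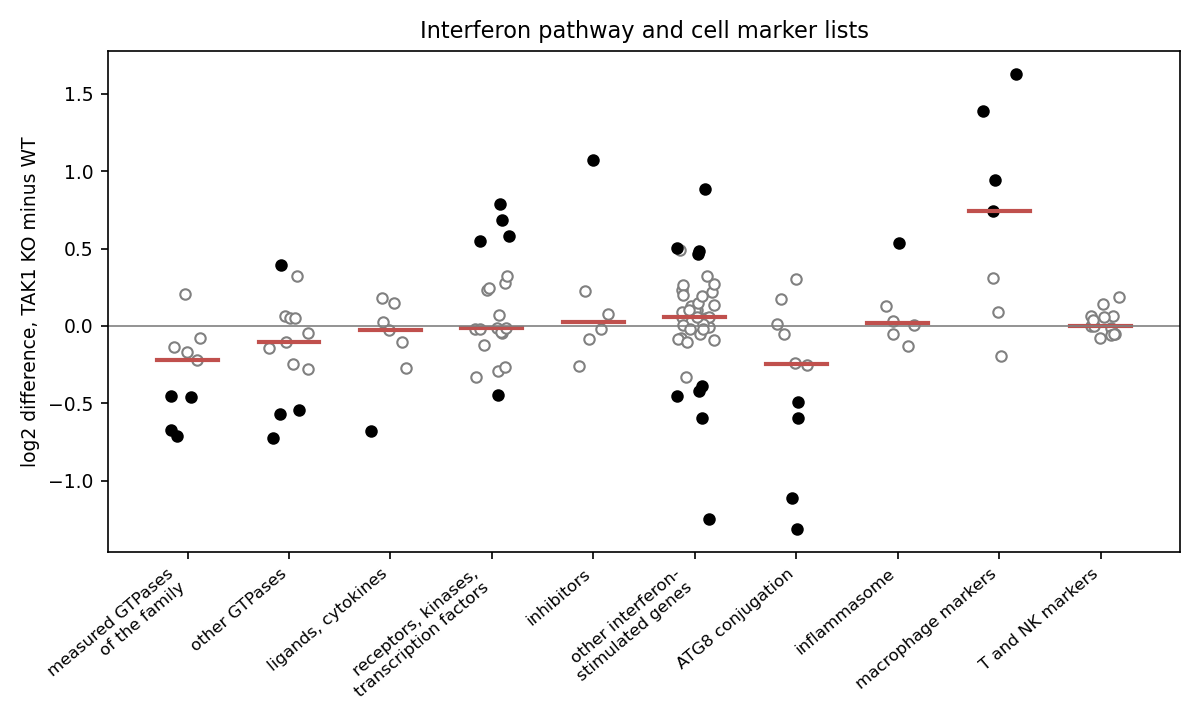
Log2 difference between TAK1 KO and WT for the measured genes of each list, with filled points for an adjusted p under 0.05, open points for the rest and a red line at the list's median. The medians are -0.22 for the GTPases of the family, -0.11 for the other GTPases, 0.06 for other interferon-stimulated genes and 0.74 for macrophage markers.

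In mouse cells the enzymes that attach ATG8 proteins to membranes are needed to load IRG and Gbp proteins onto vacuoles. Of 10 such genes and ATG8 proteins 4 fell and 0 rose, with a median log2 difference of -0.25. The conjugating enzyme Atg3 read 1134.5 and 1125.5 units in WT against 488 and 420.7 in TAK1 KO, and the ATG8 protein Gabarapl1 1961.1 and 1661.3 against 924.1 and 754.4 units. Their log2 differences of -1.31 ± 0.10 and -1.11 ± 0.13 (SE; limma adjusted p = 5.64e-05 and 0.000393) kept their calls under all 13 alternatives. Atg3 was at -0.61 with all its probes averaged. Atg5 and Map1lc3b fell 1.40-fold and 1.51-fold (limma adjusted p = 0.00956 and 0.0315). Both missed the threshold without WT replicate 1 (0.0589 and 0.243), as with a background offset of 16 (0.0545 and 0.0703), and Atg5 also without WT replicate 2 (0.0877). Without WT replicate 1, 2 genes of the list fell, and without TAK1 KO replicate 1, 1 rose. Gabarapl2, the ATG8 protein most tied to IRG targeting, read 141.8 and 179.9 units in WT against 176.8 and 147.3 in TAK1 KO (limma adjusted p = 0.972). Of 6 inflammasome genes, some of which act after Gbp proteins open a vacuole, 1 rose, the protease gene Casp1, from 385.4 and 366 to 510.9 and 584.3 units (1.45-fold, limma adjusted p = 0.00581; 0.0651 without WT replicate 2).

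Cell markers that could move with these genes were read on the same arrays. Of 7 measured macrophage markers 4 rose and 0 fell. Their summed intensity was 5562.8 to 6138.9 units in WT and 11230.1 to 11812.1 units in TAK1 KO liver. Lyz2 rose most, from 1222.3 and 1332.3 to 3971.5 and 3947.2 units. Clec4f, Cd5l and Timd4 were not called (limma adjusted p = 0.0937, 0.662 and 0.751). Among 13 markers of T and NK cells, which make interferon gamma, 0 rose and 0 fell in limma's test (0 at an unadjusted p under 0.05). Their summed intensity was 1584.6 to 1645.2 units in WT and 1538.6 to 1825.6 in TAK1 KO, with Cd4, Cd8a, Ncr1 and Gzmb among the 9 that were dim on all arrays and Prf1 alone at 667.5 to 972.1 units. Stellate cell markers rose in 7 of 8 cases and summed to 9517.8 to 10390.6 units in WT and 19358.5 to 23117.2 in TAK1 KO. Of 8 hepatocyte markers 0 rose and 0 fell (4 at an unadjusted p under 0.05), at sums of 124890 to 128625.6 and 131667.2 to 140827.6 units. Ttr, Apoa1 and Apoc3 made up most of these hepatocyte sums.

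Neutrophil markers rose in 3 of 4 cases, summing to 357.5 to 507.7 units in WT and 992.2 to 1237.7 in TAK1 KO, and 1 of 5 dendritic cell markers rose (378 to 391.1 against 465.9 to 520.4 units). Of 8 endothelial markers 1 fell and 0 rose (7067.7 to 7101 against 7395.1 to 7556.5 units). Most of these sums was Clec4g, at 4884 and 4973.9 units in WT against 5631.2 and 5775.4 in TAK1 KO. Both TAK1 KO values lay below both WT values in 3 of the 8 and above them in 1, beside 26.6% and 27.3% of all genes. Of 3 bile duct markers 1 rose (204.9 to 226 against 257.3 to 290.9 units), and 3 B cell markers summed to 247.7 to 247.9 and 236.9 to 239.6 units with 0 called either way (0 at an unadjusted p under 0.05 in limma). Left out in turn, single arrays moved the small counts: the dendritic rises were 0 with either WT array left out and 2 without TAK1 KO replicate 1, and the bile duct rises 0 without WT replicate 1 and 2 without TAK1 KO replicate 2. The endothelial falls were 2 without TAK1 KO replicate 2, and 1 hepatocyte marker then rose, while 1 fell without TAK1 KO replicate 1. The count of hepatocyte falls was also 1 with each of quantile normalization, the 100-unit filter, array weights and the replicate block, and 1 rose and 1 fell under a robust prior. The part of any of these cell types in the GTPase differences was not tested.

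Among 7458 genes outside all lists with a mean above 100 units, the 5 whose profile over the 4 arrays lay nearest to the median profile of the GTPases were Kmo, Mtrf1, Ctdsp1, Lrig1 and Dnmbp. Likeness was the Euclidean distance between log2 deviations from each gene's own mean, which was 0.0759 for Kmo and 0.0836 for Dnmbp. The members themselves lay farther from that median, from 0.25 for Gbp7 to 0.54 for Irgm1. Kmo, an enzyme of tryptophan breakdown, read 2093.5 and 2083.9 units in WT against 1574.3 and 1790 in TAK1 KO (limma adjusted p = 0.0607). These 5 genes are a description over 4 arrays.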

How the data were processed

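Whole-liver RNA was extracted with Trizol, cleaned and DNase-treated, and biotinylated cRNA was made with an Ambion MessageAmp kit, per the labels' protocols. The authors deposited linear probe intensity values, already normalized between arrays by a method not given in the sources used here, with no detection p. A second table has 4 columns whose names match no sample and were not used.

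Intensities were background-corrected per array with normexp (offset 50) and put on the log2 scale, so fold changes of dim genes are understated. Of 25697 probes 23978 had 1 gene in the platform annotation, 0 had several and 1719 were unnamed here. Gene identifiers were looked up in RefSeq's GRCm38.p6 table for current symbols (11 unmatched). The genotypes were tested with lmFit and eBayes of limma 3.58.1 (R 4.3.3; two-sided, 2 residual and 6.85 prior degrees of freedom), with Benjamini-Hochberg adjustment over all 16593 genes. Where 1 group was below 100 units on both arrays, a bound against the lowest value above 100 units on each array is given. An exact permutation test cannot give a p below 0.333 here and was not used. No batch is labelled. The procedure was tested on simulated data with independent noise for each gene, drawn from the prior fitted to these arrays. Shifts shared by many genes on an array were not simulated, so the test does not cover them.

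The members, the lists, the promoter motifs and the 100-unit level were chosen with earlier results of these data known. The genes named were all members, every called gene of each pathway list (with over 8, the 4 largest rises and falls), Ifng, its receptors, Jak1, Jak2 and Irf1, and the 5 nearest profiles, except for a gene not reported here; further dim family members, Socs1, Gabarapl2 and the genes named between the TAK1 KO arrays were added after their values were seen. The 13 alternatives covered background, normalization, filter, probe choice, prior, array weights, a replicate block and leaving out each array. Same-numbered arrays' deviations correlated at 0.0453, so the numbers were not taken to pair them.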

Additional observations from a re-analysis of the deposited data

How the results depend on the processing

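The count of lower GTPases, 4 of 9, was 3 with a background offset of 16, 2 with all probes of a gene averaged, 2 to 6 when each array was left out in turn, and 5 with the second Irgm1 probe, an alternative chosen after seeing the data. With the replicate number as a block it was 4, and the block ended no member's call. The count of higher GTPases was 0 under all 13 alternatives and the added one. The median log2 difference, -0.22, ranged from -0.516 to -0.182 over the fits that leave out an array, and was -0.455 with only the 7 members above 100 units on at least 2 arrays and -0.455 with the second Irgm1 probe. Signs turned in 6 genes that did not pass in the main setting. Over the fits that leave out an array Gbp4 ranged from -0.154 to 0.00362, Irgm2 from -0.574 to 0.237, Ifi47 from -0.555 to 0.116, Ifngr2 from -0.0779 to 0.544 and Jak1 from -0.0456 to 0.0164. Irgm1 was at -0.0848 with probes averaged and at -0.50 with its second probe. Of the 9 members only Iigp1, which is dim, kept its direction and its side of the threshold under every alternative that could be run, 12 in its case since the filter removes it. Over all genes the calls fell from 1743 up and 1279 down to 1068 and 759 without WT replicate 1 and to 1035 and 765 without WT replicate 2. Where alternatives ended a call the cause was not tested. Without detection p-values, the signal over background of dim probes cannot be judged.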
